A study of Mus musculus with 2 samples.

Results

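The 36 genes described here encode proteins that copy DNA in S phase. They were taken by symbol from the 31053 genes of the files, and each symbol matched 1 gene in both libraries. They fall into 6 roles: 9 in licensing, 4 in firing, 12 at the replication fork, 5 in nucleotide supply, 4 that act on new chromatin and 2 cyclins E. The tumours formed under the skin of mice from MC38 cells, an established colon carcinoma line of the mouse, and their dissociated cells were profiled one by one in droplets from the 3' ends of transcripts. The design holds 2 libraries, 1 from the control group and 1 from the group overexpressing UBD, a ubiquitin-like modifier also called FAT10 that marks proteins for the proteasome. The labels give no vector, promoter, mouse strain, age or time for either group, nor how many tumours were pooled, and they call the tissue a xenograft although line and host are both mouse. By its title, the study is about UBD in escape from immunity and in resistance to PD-1 antibodies. Here the question is in which cell classes the replication genes were seen, and at what level in each library. With 1 library in each group no difference can be tested against replicates, so each value describes these libraries. All intervals, given as lower to upper bound, are 95% intervals. They cover counting error alone, except those of list medians, which reflect the spread over genes.

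A cell prepares origins of replication before S phase by loading the MCM2-7 helicase onto DNA, a step called licensing that is carried out by CDC6 and CDT1 and blocked by geminin. In S phase CDC45 and the GINS complex activate the helicase, polymerases copy the strands with PCNA as their sliding clamp, and FEN1 and LIG1 join the fragments of the lagging strand. Transcription of most of these genes is driven by E2F factors and is highest around the start of S phase, so their summed transcripts are used in single cells as a sign of that phase. In a tumour, cancer cells, activated lymphocytes and some macrophages divide, whereas neutrophils and mature dendritic cells are known as cells that have left the cycle.

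The promoters of 3 members show the E2F-type letters that these genes are known for, and they are printed here because E2F control is the background to summing the 36 genes. They are the stretches whose matches before the start lie, with the bases around them, wholly outside the gene as annotated. Sequences come from the RefSeq promoter table on GRCm38.p6, which held 29 of the 36 members with 34 promoters, each from 250 bases before to 50 bases after a gene's start. The letters searched on both strands were TTTCGCGC, TTTGGCGC, TTTCCCGC and TTTGCCGC, and overlapping matches were counted once per promoter. They were found in 11 of the 34 member promoters (32.4%) and in 744 of all 32851 promoters of the same length (2.26%). The letters CCAAT, searched on both strands, were in 20 of the 34 (58.8%) and in 37.4% of all promoters. A match is a description of these letters and no evidence of binding. Below, capitals mark the E2F-type letters, each stretch reads 5' to 3' on the gene's strand, and Mcm6 and Mcm5 encode helicase subunits while Pola1 encodes the catalytic subunit of the polymerase that starts each fragment. The stretch of Mcm6 is chr1:128359706-128359855 on the minus strand and ends 1 base before the start of the RefSeq transcript it was taken for. That of Mcm5 is chr8:75109316-75109407 on the plus strand, and that of Pola1 is chrX:93632246-93632333 on the minus strand.
Mcm6: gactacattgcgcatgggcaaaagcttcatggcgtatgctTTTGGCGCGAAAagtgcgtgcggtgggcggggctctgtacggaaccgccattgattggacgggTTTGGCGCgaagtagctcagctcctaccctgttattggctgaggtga
Mcm5: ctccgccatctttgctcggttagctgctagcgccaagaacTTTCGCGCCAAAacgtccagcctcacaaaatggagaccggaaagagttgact
Pola1: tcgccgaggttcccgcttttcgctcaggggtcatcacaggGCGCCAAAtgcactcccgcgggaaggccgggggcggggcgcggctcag
The Mcm6 stretch holds 3 matches, of which 2 overlap, the Mcm5 stretch 2 overlapping matches and the Pola1 stretch 1.

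The control library held 173973178 UMIs in 14890 barcodes and the UBD library 204267192 UMIs in 14158 barcodes. Filtering and a doublet caller left 13824 control cells with a median of 4333 UMIs and 13057 UBD cells with a median of 12186. The libraries shared 71 barcodes. Ubd itself gave 39 UMIs in control and 179 in UBD tumour cells, 0.326 CPM (UMIs per 1000000 UMIs of the class; 0.232 to 0.445) and 1.204 CPM (1.03 to 1.39). A transgene without the mouse 3' end would not be counted here. The series' design text names goblet cells, but 6 goblet cell genes (Muc2, Tff3, Spink4, Agr2, Clca1 and Fcgbp) summed to 28 UMIs over all control and 19 over all UBD cells.

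Cells were put into classes by UMIs of marker genes that are not replication genes, and a cell that met the rules of more than 1 class was left out. The tumour class (Cdkn2a) held 5027 control and 7595 UBD cells, the macrophage class (C1qa) 2190 and 1748, the osteoclast-like class (Acp5 with Ctsk) 138 and 744, the T class (Cd3e) 366 and 396, the NK class (Ncr1) 190 and 20, and the dendritic class (Flt3) 94 and 46. Markers that the rules did not use were read beside them. C1qb was 4410 CPM in control and 4358 CPM in UBD macrophages, against 21.1 and 10.3 CPM in tumour cells, and Cd3d was 1221 and 1345 CPM in T cells, against 0.718 and 0.585 CPM in tumour cells. In the dendritic class the mature dendritic markers (1656 and 1774 CPM summed) exceeded the class's own list (1190 and 1198 CPM), so it is the class set by Flt3 and holds mature cells. Y-linked transcripts, which the tumour class lacks, summed to 2.11 CPM in its control and 0.424 CPM in its UBD cells, against 63.7 CPM or more in the 5 host classes named above. No class rule was met by 5489 control and 2244 UBD cells. Tumour cells had medians of 19192 (control) and 17128 UMIs (UBD), and macrophages of 4064 and 5722. Since depth differed this much, shares of cells were taken after random thinning of each cell to 2000 UMIs, without the cells below that depth. This removed 4.42% of control and 0.579% of UBD tumour cells, 14.7% and 7.72% of macrophages, 15.9% and 0.806% of osteoclast-like cells and 17.8% and 30.1% of T cells.

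Replication transcripts were seen in cells of every class, and cells with 5 or more of them made up the largest share in the tumour class of the control library. Of 4805 control tumour cells, 1491 had 5 or more replication UMIs out of 2000, a share of 31.0% (29.7 to 32.4). The control shares were 21.6% in the NK class (15.8 to 28.4), 19.9% in the T class (15.6 to 24.9), 18.1% in the osteoclast-like class (11.6 to 26.3), 7.93% in the macrophage class (6.74 to 9.25) and 4.44% in the dendritic class (1.22 to 11.0). At this limit and depth the tumour share lay above each of these, with the nearest, NK, 9.44 points lower (2.66 to 15.0). Among NK, T and osteoclast-like cells no pair differed beyond counting error. Macrophages lay 10.2 points below osteoclast-like cells (4.09 to 18.2), and macrophages and dendritic cells did not differ beyond counting error (3.48 points, -3.05 to 6.49).

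**Figure D1:**
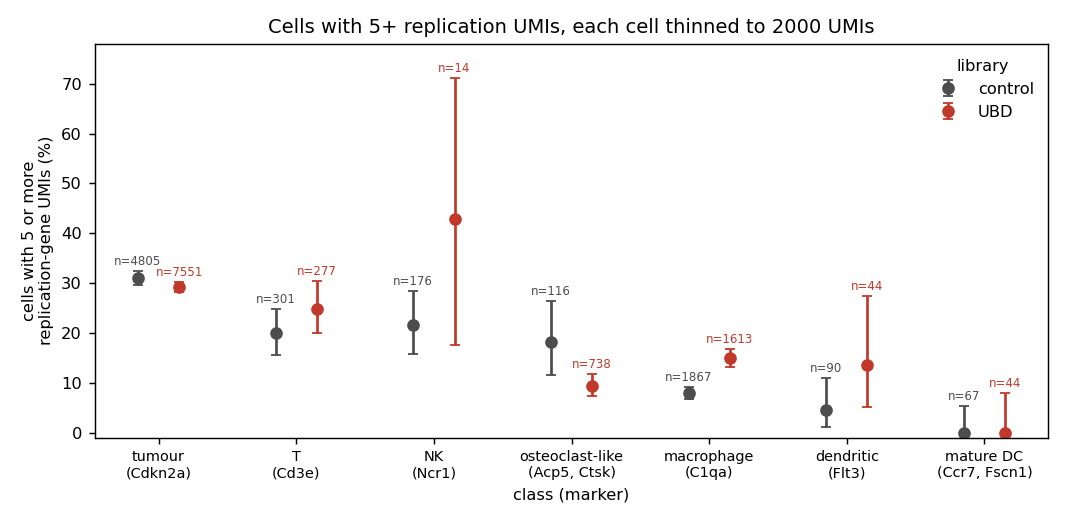
Percent of cells with 5 or more replication-gene UMIs (vertical axis) by class and marker (horizontal axis) in the control library (grey) and the UBD library (red), every cell thinned to 2000 UMIs. Points are shares, bars are exact 95% binomial intervals for counting error, and n is the number of cells. Tumour cells sit near 30% in both libraries, macrophages at 7.93% and 14.9%, and mature dendritic cells at 0.

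A class that should not copy DNA gives the background. Mature dendritic cells, set by Ccr7 and Fscn1, had 0 of 67 control and 0 of 44 UBD cells with 5 or more UMIs, which allows shares of up to 4.48% and 6.82%. Their median depths before thinning were 3994 and 2985.5 UMIs, against 4064 and 5722 in macrophages and 3395 and 2557.5 in T cells. They still held on average 0.851 and 0.977 replication UMIs per 2000, so 1 or 2 UMIs are at the background level of this class. Tumour cells with fewer than 5 replication UMIs averaged 2.06 (control) and 1.92 (UBD), and whether the same background holds for them was not tested. The neutrophil class, set by S100a9 and Csf3r, left 10 control cells and 1 UBD cell at this depth, too few to use.

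In the UBD library the tumour share was again the highest of the classes with over 100 cells, at 29.3% (28.3 to 30.3), or 2211 of 7551 cells. It was followed by T cells at 24.9% (19.9 to 30.4), macrophages at 14.9% (13.2 to 16.8) and osteoclast-like cells at 9.35% (7.35 to 11.7). Tumour and T cells did not differ beyond counting error there (4.37 points, -1.14 to 9.21), whereas macrophages exceeded osteoclast-like cells by 5.59 points (2.74 to 8.22). In the control library that order was the other way round. Which of the tumour and T classes had the higher share depended on the limit and the depth. With 8 or more UMIs, T cells had 11.3% and tumour cells 11.0% in the control, and 16.6% and 12.5% in the UBD library. At 1000 UMIs the values were 8.10% and 7.73%, and 9.59% and 9.14%. At 4000 UMIs they were 52.6% and 63.2%, and 67.4% and 59.4%. With 3 or more UMIs tumour cells were higher in both libraries (57.5% against 40.2%, and 53.7% against 43.7%).

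Between the libraries, the macrophage share was 7.93% in control and 14.9% in UBD cells, 7.01 points higher in the UBD library (4.90 to 9.16). The osteoclast-like share was 18.1% and 9.35%, a difference of -8.75 points (-17.0 to -2.37) that rests on 21 of 116 control cells. It was -19.4 points with 3 or more UMIs counted. Its interval spanned 0 with cells thinned to 1000 UMIs (-0.97 points, -5.91 to 1.84), without the 3 members with most UMIs (-3.84, -10.9 to 0.932) and with cells counted in every class they met (-5.84, -13.1 to 0.0849). For T cells, 19.9% and 24.9%, the difference of 4.98 points spans 0 (-1.82 to 11.8). Whether it does depends on the draw, since another draw gave 7.97 points (1.34 to 14.6), and it was 14.8 points (1.89 to 26.6) at 4000 UMIs and 5.86 as the mean over all draws. Tumour cells differed by -1.75 points (-3.42 to -0.0924), but the sign is not settled: another random draw gave 0.13 points, and the mean expected over all draws was -0.917. The macrophage difference expected over all draws was 8.22 points and the osteoclast-like one -6.57. Without the barcodes that both libraries list, the differences were 7.05 points in macrophages, -8.90 in osteoclast-like cells, 4.36 in T cells and -1.76 in tumour cells.

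Without thinning, 85.7% of control and 93.2% of UBD tumour cells, 20.3% and 34.3% of macrophages, 60.1% and 61.8% of osteoclast-like cells, and 33.1% and 29.8% of T cells had 5 or more replication UMIs. The T cell order without thinning thus goes against the thinned one, and no order is read from it. Among macrophages with 5 or more UMIs the mean was 7.57 UMIs in control and 8.49 in UBD cells, and among those with fewer it was 1.04 and 1.10. The share of macrophages with 10 or more UMIs was 1.55% (control) and 4.65% (UBD), and that with 0 UMIs was 35.1% and 34.2%. Between these ends, 46.8% of control and 38.3% of UBD macrophages had 1 or 2 UMIs, 10.2% and 12.6% had 3 or 4, and 6.37% and 10.3% had 5 to 9. The UBD library thus had a smaller share at 1 or 2 UMIs and larger shares from 3 UMIs up. At the limit of 5 UMIs, 58 control macrophages had exactly 4 and 52 exactly 5, against 90 and 44 UBD macrophages.

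**Figure D2:**
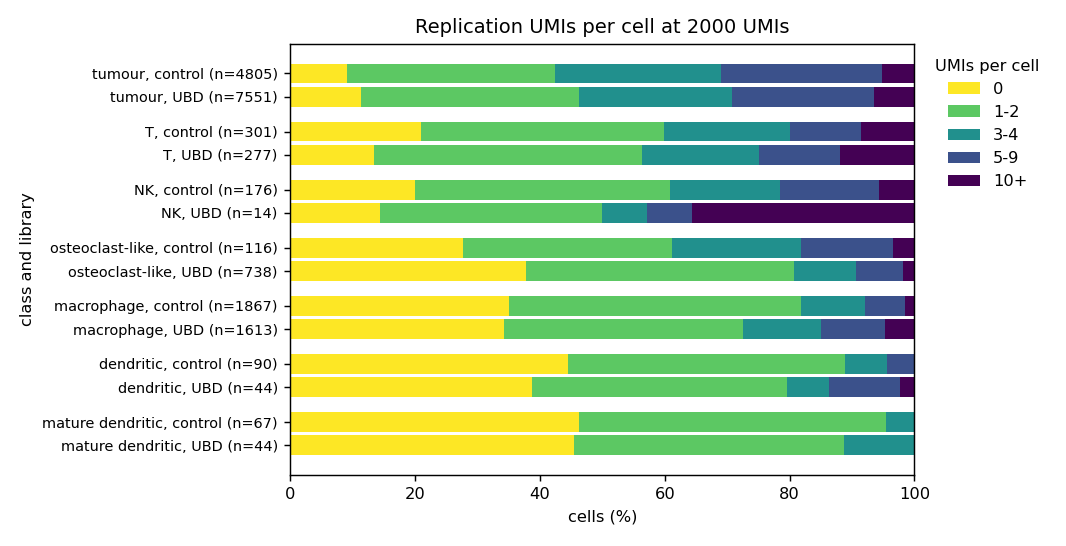
Percent of cells (horizontal axis) with 0, 1 to 2, 3 to 4, 5 to 9 or 10 or more replication UMIs out of 2000 (colours), by class and library (vertical axis), with the number of cells. The darkest segment is wider in UBD than in control macrophages (4.65% against 1.55%) and wider in T cells (11.9% against 8.64%).

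Other measures also differed between the libraries in these classes. In macrophages the 3 monocyte markers Ly6c2, Plac8 and Ccr2 were all detected and all lower in the UBD library, with sums of 1632 and 227 CPM. Gm42418, a locus inside ribosomal RNA sequence, gave 10873 and 2843 CPM there, and mitochondrial transcripts 2.28% and 3.05% of UMIs. In osteoclast-like cells Gm42418 gave 3804 and 1301 CPM, mitochondrial transcripts 4.196% and 5.72% of UMIs, and the 6 macrophage markers summed to 810 and 507 CPM. In T cells the 4 fibroblast markers summed to 93.1 and 707 CPM, of which Col1a1 gave 70.7 and 589. The part of these measures in the results was not tested. A UMI of Ly6c2 was present in 39.5% of control and 2.05% of UBD macrophages. In cells with one, 5.02% of 737 control and 9.09% of 33 UBD cells had 5 or more replication UMIs (4.07 points, -2.15 to 18.6). Among macrophages without one the share with 5 or more replication UMIs was 9.82% (control) and 15.1% (UBD), a difference of 5.24 points (2.72 to 7.69). Split by H2-Ab1, an MHC class II gene, it was 7.60% and 12.7% in cells with a UMI (5.06 points, 2.30 to 7.74) and 8.18% and 19.3% in cells without (11.1 points, 7.56 to 14.9).

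Between the libraries, the summed level of the 36 genes pointed the same way as the main share difference in the 4 classes that follow. In control macrophages they summed to 940 CPM and in UBD macrophages to 1356 CPM, 1.44 times as much (1.40 to 1.48). Fewer cells in cycle and less RNA per cell in cycle cannot be told apart in such sums. In osteoclast-like cells the sums were 1326 and 917 CPM, a ratio of 0.692 (0.662 to 0.723). Tumour cells held 2055 and 2025 CPM (ratio 0.986, 0.980 to 0.991) and T cells 2045 and 2186 CPM (1.07, 1.02 to 1.12). Control macrophages thus had the lowest and tumour and T cells the highest sums of these 4 classes in the control library. Tumour and T cells were near equal in these control sums, although their control shares were 31.0% and 19.9%. The T share difference between the libraries was 4.98 points (-1.82 to 11.8), so it was less settled than the T ratio of sums. Mature dendritic cells, the background class, also had a higher sum in the UBD library. It was 355 CPM in control and 637 CPM in UBD cells, from 114 and 130 member UMIs. A higher sum in the UBD library was thus not limited to classes with cells of 5 or more replication UMIs. Of all member UMIs, Dut gave 12.0% in control and 14.9% in UBD tumour cells and Pclaf 6.55% and 7.12%, as shares of 3' UMIs that are not divided by length. In control macrophages Pcna led with 10.6% of member UMIs, and in UBD macrophages Pclaf with 10.8%.

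Members were compared between libraries in each class by the ratio of their CPM, for genes with at least 20 UMIs over both libraries. All 36 members passed that limit in tumour cells, macrophages and osteoclast-like cells, and 35 did in T cells, where Gins1 had 11 UMIs. In macrophages 20 members were at least 1.5-fold higher in the UBD library and 1 was lower, against 10.6% and 21.0% of the 11423 genes measured there. The median log2 ratio of the members was 0.65 (0.39 to 0.81 over members), beside -0.10 for all genes. In osteoclast-like cells 0 members were higher and 16 lower (13 with an interval that excludes 1), against 10.3% and 14.5% of 10248 genes, with a median of -0.55 (-0.70 to -0.49) beside -0.02. That count was 4 and the median -0.18 when cells that met several class rules were counted in each class. In tumour cells 0 of 36 members passed 1.5-fold in either direction, against 8.85% higher and 21.2% lower among 15209 genes, and the median was -0.01 (-0.18 to 0.06). T cells had 3 members higher and 2 lower (3 and 1 with an interval that excludes 1), against 10.3% and 13.4% of 8267 genes, with a median of 0.10 (-0.11 to 0.19).

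**Figure D3:**
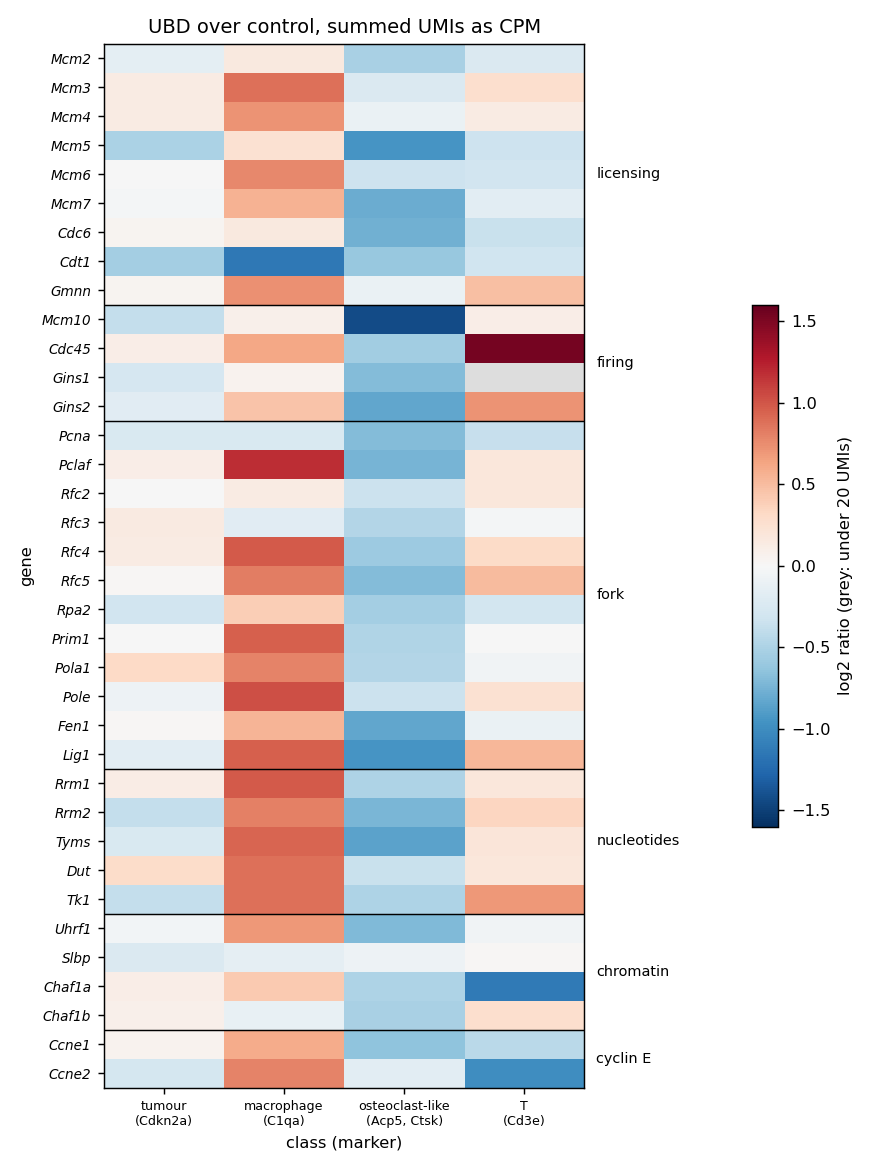
Log2 ratio of UBD to control CPM (colour) for each of the 36 genes (rows, grouped by role) in tumour cells, macrophages, osteoclast-like cells and T cells (columns). Macrophages are mostly red, with 20 genes at least 1.5-fold higher in the UBD library and Cdt1 lower, osteoclast-like cells are blue throughout, and tumour cells lie between -0.55 and 0.31.

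Among the 9 licensing genes, 4 were at least 1.5-fold higher in UBD macrophages, the helicase subunits Mcm3, Mcm4 and Mcm6 and the inhibitor Gmnn, and the loader Cdt1 was lower. Mcm3 (ENSMUSG00000041859, GRCm38 chromosome 1, 20802968 to 20820312) was 41.5 CPM in control and 76.3 CPM in UBD macrophages, 1.84-fold higher in the latter (1.64 to 2.08). Mcm6 was 41.2 and 70.4 CPM (1.71-fold, 1.52 to 1.93). Mcm4 was 21.9 and 35.95 CPM (1.65-fold, 1.39 to 1.95). Gmnn, which encodes the licensing inhibitor geminin, followed them with 36.9 and 61.1 CPM (1.66-fold, 1.46 to 1.89). Mcm2, Mcm5, Mcm7 and the loader Cdc6 had ratios from 1.12 to 1.47, below the 1.5-fold limit. Cdt1 (ENSMUSG00000006585, chromosome 8, 122568015 to 122573554) went the other way, from 428 and 202 UMIs: control macrophages had 41.9 CPM and UBD macrophages 18.96 CPM, which is 2.21-fold lower (1.87 to 2.63). Cdt1 overlaps Gm20388 on its own strand, and that gene had 0 UMIs in both libraries. A further 13 members overlap a gene on the other strand, and use of strand in counting is not stated.

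Cdt1 was also the member with the smallest ratio in tumour cells, at 50.2 CPM (control) and 34.4 CPM (UBD), or 1.46-fold lower (1.41 to 1.52). Mcm5 came next there with 46.2 and 32.7 CPM (1.42-fold lower, 1.36 to 1.47), while Mcm3 was 81.3 and 89.3 CPM (1.10-fold higher, 1.07 to 1.13). Subunits of 1 helicase thus differed from each other in tumour cells, all within 1.5-fold. In osteoclast-like cells Mcm5 was 41.9 and 21.9 CPM (1.92-fold less in UBD cells, 1.46 to 2.49). Mcm7 was 48.8 and 28.1 CPM (1.74-fold lower, 1.36 to 2.21) and Cdt1 53.1 and 34.9 CPM (1.52-fold lower, 1.203 to 1.90). Mcm4 and Gmnn did not differ beyond counting error there, with ratios of 0.925 (0.658 to 1.33) and 0.926 (0.770 to 1.12). In T cells 0 of the 9 licensing genes passed 1.5-fold, and the largest ratio was that of Gmnn, 80.7 and 112 CPM (1.39, 1.10 to 1.77).

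The 4 firing genes have few UMIs outside tumour cells. Cdc45 was 7.15 CPM in control and 11.0 CPM in UBD macrophages (1.54-fold higher, 1.14 to 2.09), and the other 3 had ratios between 1.04 and 1.38. The same gene had the largest ratio of any member in T cells, 7.66 and 22.2 CPM from 13 and 30 UMIs (2.89-fold higher, 1.46 to 6.04). Gins2, a subunit of GINS, was 18.9 and 31.0 CPM in T cells (1.65-fold higher, 1.014 to 2.69). In osteoclast-like cells the 4 firing genes pointed the other way, and Mcm10, which helps to activate the helicase, had the smallest ratio of all members. Control cells had 14.9 CPM and UBD cells 5.52 CPM, from 28 and 54 UMIs (2.69-fold lower, 1.64 to 4.33). Gins2 was 29.2 and 16.3 CPM there (1.79-fold lower, 1.29 to 2.44).

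At the fork, 7 of 12 genes were at least 1.5-fold higher in UBD macrophages and 0 lower. Pclaf (ENSMUSG00000040204, chromosome 9, 65890237 to 65903266), which encodes a small PCNA-binding protein, had the largest ratio of the 36 genes, with 64.4 CPM in control and 146 CPM in UBD macrophages (2.27-fold higher, 2.07 to 2.49). A Pclaf UMI was present in 8.90% of control and 21.1% of UBD macrophages before thinning. Pole, the catalytic subunit of the leading-strand polymerase, was 3.63 and 7.42 CPM from 37 and 79 UMIs (2.05-fold higher, 1.37 to 3.11). Rfc4, a subunit of the clamp loader, was 15.7 and 31.1 CPM (1.98-fold higher, 1.64 to 2.41). The ligase gene Lig1 was 31.7 and 61.3 CPM (1.94-fold, 1.69 to 2.22) and the primase gene Prim1 9.31 and 18.0 CPM (1.94-fold, 1.51 to 2.50). Rfc5 and Pola1 were the other two past the limit, with ratios of 1.76 and 1.74.

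The clamp itself did not follow. Pcna was 99.3 CPM in control and 84.0 CPM in UBD macrophages, 1.18-fold lower in the UBD library (1.08 to 1.29), and a Pcna UMI was present in 29.5% of both. Rfc3 was 29.4 and 25.9 CPM (ratio 0.881, 0.746 to 1.04) and Rfc2 50.8 and 55.5 CPM (1.09, 0.970 to 1.23). Clamp loader subunits thus split, with Rfc4 and Rfc5 higher and Rfc2 and Rfc3 near equal. In osteoclast-like cells 5 of the 12 were at least 1.5-fold lower, Pcna among them at 63.7 and 39.2 CPM (1.62-fold lower, 1.31 to 1.997). The others were Lig1 with 43.5 and 22.6 CPM (1.93-fold lower, 1.48 to 2.49), Fen1 with 22.8 and 12.9 CPM (1.77-fold), Pclaf with 108 and 64.5 CPM (1.68-fold) and Rfc5 with 34.0 and 20.9 CPM (1.62-fold). In tumour cells Pola1 had the largest ratio of all members, 32.4 and 40.2 CPM (1.24-fold higher, 1.19 to 1.29). Pcna was 100.1 and 84.3 CPM there (1.19-fold lower, 1.16 to 1.22).

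All 5 nucleotide genes were at least 1.5-fold higher in UBD macrophages, and together they summed to 143 CPM in control and 268 CPM in UBD cells (1.88-fold, 1.761 to 1.9999). Rrm1, the large subunit of ribonucleotide reductase, was 31.9 and 63.1 CPM (1.98-fold, 1.73 to 2.27). Its partner Rrm2 was 12.9 and 22.6 CPM (1.75-fold, 1.41 to 2.18). Tyms, which makes the thymidine nucleotide from the uridine one, was 22.8 and 43.6 CPM (1.91-fold, 1.63 to 2.24). Dut, which removes dUTP, was 46.0 and 85.0 CPM (1.85-fold, 1.65 to 2.07), and the salvage kinase gene Tk1 29.2 and 53.7 CPM (1.84-fold, 1.596 to 2.12). Their intervals overlapped widely, so these genes were not ranked. Osteoclast-like cells had Tyms at 48.8 and 26.9 CPM (1.82-fold lower, 1.42 to 2.31) and Rrm2 at 30.2 and 18.3 CPM (1.65-fold lower, 1.21 to 2.24). In tumour cells the same 5 genes pointed both ways. Dut was 246 and 302 CPM (1.22-fold higher, 1.21 to 1.24), while Rrm2 was 54.3 and 41.5 CPM (1.31-fold lower, 1.26 to 1.36) and Tk1 67.7 and 52.0 CPM (1.30-fold lower, 1.26 to 1.34). T cells had Tk1 at 26.5 and 42.8 CPM (1.62-fold higher, 1.08 to 2.44).

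Of the genes that act on new chromatin, Uhrf1, which carries DNA methylation over to the daughter strand, was 19.99 CPM in control and 32.2 CPM in UBD macrophages (1.61-fold higher, 1.35 to 1.93). In osteoclast-like cells it was 27.6 and 17.0 CPM (1.63-fold lower, 1.17 to 2.23). Slbp, which binds histone mRNA, differed little in either, with 59.1 and 53.3 CPM in macrophages and 34.0 and 32.2 CPM in osteoclast-like cells. Chaf1a, a subunit of the chromatin assembly factor, was 19.4 and 8.86 CPM in T cells from 33 and 12 UMIs (2.19-fold less in UBD cells, 1.10 to 4.67). Both cyclin E genes, whose products drive entry into S phase, passed the limit in macrophages. Ccne1 was 7.15 and 10.8 CPM (1.51-fold higher, 1.12 to 2.05) and Ccne2 3.63 and 6.29 CPM (1.73-fold higher, 1.14 to 2.67). In tumour cells their ratios were 1.04 and 0.825.

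NK and dendritic cells were too few for the list summaries, and their values are given for completeness. In the NK class 38 of 176 control cells and 6 of 14 UBD cells had 5 or more replication UMIs, 21.6% and 42.9% (17.7 to 71.1). Their member sums were 1937 and 3613 CPM. Of 28 NK members with 20 UMIs 17 were at least 1.5-fold higher and 5 lower in the UBD library, against 20.6% and 29.0% of 5133 genes, from 20 UBD cells. The interval excluded 1 for 12 of those higher and 0 of those lower. In the dendritic class 4 of 90 control and 6 of 44 UBD cells had 5 or more UMIs (9.19 points higher, -0.488 to 22.5). Another draw gave 3.48 points, and the difference expected over all draws was 4.07. All of these 10 cells were among those that did not also meet the mature rule, 4 of 62 and 6 of 32, and cells that met both had 0 of 28 and 0 of 12. Of 17 dendritic members with 20 UMIs 4 were higher and 3 lower (1 and 0 with an interval that excludes 1), against 8.62% and 28.8% of 4108 genes.

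Genes were also ordered by class within each library. In the control library the tumour class had the highest CPM for 18 of the 36 members, NK for 8, T for 7, osteoclast-like for 2 and dendritic for 1. The highest class exceeded the second beyond counting error for 9 of those 18, 2 of the T members and 0 of the NK members. Dut was 307 CPM in control T cells and 246 CPM in tumour cells (1.25-fold, 1.14 to 1.36), and Rpa2, a subunit of the single-strand binding complex, was 80.7 CPM in T and 45.9 CPM in NK cells (1.76-fold, 1.26 to 2.48). In the UBD library, where the 20 NK cells were not ordered, the tumour class was highest for 20 members and T for 12. Rpa2 again led in T cells, with 65.7 CPM against 26.8 CPM in tumour cells (2.45-fold, 1.96 to 3.02).

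How closely each member went with the rest was measured inside each library, by splitting thinned tumour cells on the summed UMIs of the other 35 members and comparing cells with 5 or more against cells with 0 or 1. All 36 members were higher in the first group in both libraries. Members were ordered by the lower of their ratios in the libraries, which put Ccne2 first, with 35.1 UMIs per 1000 cells against 4.14 in the control (log2 ratio 3.09) and 31.3 against 3.67 in the UBD library (3.096). Its ratios rest on 5 and 8 UMIs in the low groups, as folds of 8.49 (3.41 to 27.2) and 8.55 (4.11 to 20.6). Rrm2 had 173 against 23.7 UMIs per 1000 cells in the control (2.87) and 164 against 9.12 in the UBD library (4.17), as folds of 7.31 (4.96 to 11.1) and 18.0 (11.5 to 29.8), so their order is not settled in the control. In the UBD library alone, Pole (4.34), Rrm2 and Tk1 (3.39) stood above Ccne2. Cdc6, Mcm5 and Pclaf came next by the lower ratio, with log2 ratios of 2.63, 2.50 and 2.41. At the other end stood Cdt1, whose log2 ratios were 0.71 and 0.57, then Slbp (0.60 and 1.00), Pcna (0.90 and 1.43), Mcm6 (0.97 and 1.46) and Rfc2 (0.99 and 1.39). Of the 5 members with a macrophage ratio below 1 between the libraries, Cdt1, Slbp and Pcna were thus among the 5 that followed the sum least in tumour cells, while Rfc3 ranked 30 and Chaf1b 12 of 36.

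**Figure D4:**
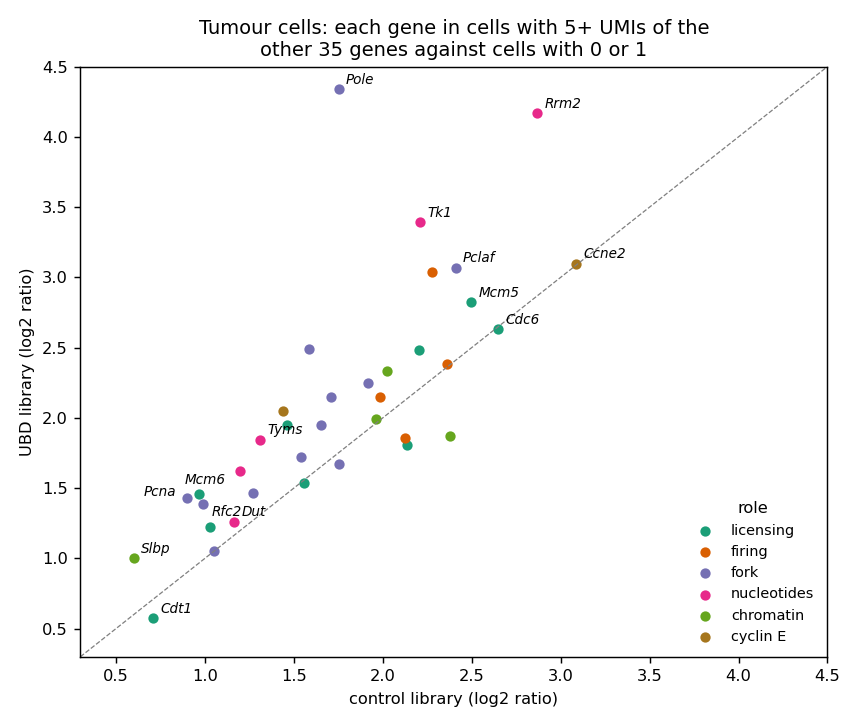
Each point is 1 of the 36 genes in tumour cells: log2 ratio of its thinned UMIs in cells with 5 or more UMIs of the other 35 genes against cells with 0 or 1, in the control (horizontal axis) and the UBD library (vertical axis), coloured by role, with the diagonal dashed. Ccne2 and Rrm2 lie towards the upper end and Cdt1 and Slbp at the lower end in both. Cdc6 lies near the upper end in the control (2.65), but at 2.63 below several other genes in the UBD library.

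In macrophages the same measure gave Cdt1 159 UMIs per 1000 cells in control cells with 5 or more other replication UMIs and 71.9 in those with 0 or 1, a log2 ratio of 1.15. In UBD macrophages the values were 106 and 12.1 (3.13). The libraries thus differed more in Cdt1 among macrophages with 0 or 1 other replication UMIs than among those with 5 or more. Pcna behaved alike, with 158 UMIs per 1000 cells in control and 83.7 in UBD macrophages of that low group, against 492 and 504 in the high group. Slbp had 97.2 and 62.1 in the low group and 188 and 252 in the high group. For Pclaf the low group held 20.8 and 50.8 UMIs and the high group 522 and 926 per 1000 cells, higher in the UBD library in both.

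Genes that are not members were ranked by the same split in tumour cells, among 2392 genes of at least 50 CPM in the cells with 5 or more UMIs of both libraries. Their median log2 ratio, taking the lower library, was 0.03, and 48 had at least 1. The CPM limit was set on the high group alone, so genes could pass through the group where they are high. This favours high ratios, and the order and the count describe only the genes so chosen. The linker histone gene Hist1h1b was 182 CPM in the high and 26.2 CPM in the low group of the control (log2 2.80) and 170 against 17.2 CPM in the UBD library (3.30). Next stood the histone genes Hist1h2ap, Hist1h2ae and Hist1h4d, whose near-identical copies may share reads, the proliferation marker Mki67, Hells, a chromatin remodeller, Top2a, the condensin gene Smc2, Tpx2 and Dnajc9. These 10 had log2 ratios from 1.68 to 2.80 in the control library.

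Mitosis genes, a list of 24 such as Top2a, Cdk1 and Birc5 that act after S phase, differed between the libraries in the same direction as the replication genes in macrophages and osteoclast-like cells. In macrophages 19 of 24 were at least 1.5-fold higher in the UBD library and 0 lower, against 10.6% and 21.0% of all genes, with a median log2 ratio of 1.09 (0.79 to 1.23), above that of the replication genes. Top2a, a topoisomerase that untangles chromosomes, was 55.9 CPM in control and 147 CPM in UBD macrophages (2.63-fold, 2.39 to 2.90), and Mki67 34.3 and 80.7 CPM (2.35-fold, 2.08 to 2.67). In osteoclast-like cells 12 of 24 were lower and 0 higher, against 14.5% and 10.3% of all genes, with a median of -0.59, though Mki67 was 52.5 and 54.4 CPM there. Tumour cells had a median of -0.23 with 1 gene, Cdc20, lower past the limit (85.8 and 49.1 CPM), against 21.2% of all genes. T cells had 0.43 with 8 higher, against 10.3%. The list overlaps no member, but its genes and the members are seen in the same dividing cells and libraries.

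Mitosis UMIs were more frequent in tumour, macrophage, osteoclast-like and T cells with 5 to 9 replication UMIs than with 0 or 1. At 10 or more, the share with 5 or more mitosis UMIs was lower again in control tumour, UBD macrophage and UBD osteoclast-like cells. It was higher in the rest of these classes and libraries. In control tumour cells 5 or more mitosis UMIs were found in 10.3% of cells with 0 or 1 replication UMIs, 23.3% with 2 to 4, 33.0% with 5 to 9 and 28.7% with 10 or more. In UBD tumour cells the values were 7.81%, 20.3%, 34.0% and 40.3%. The libraries thus parted at 10 or more replication UMIs, where the intervals were 23.2 to 34.8 and 35.9 to 44.8. Macrophages with 5 to 9 replication UMIs had 5 or more mitosis UMIs in 14.3% of the control (8.55 to 21.9) and in 38.6% of the UBD library (31.1 to 46.4). With 10 or more replication UMIs the shares were 34.5% (17.9 to 54.3) and 34.7% (24.0 to 46.5), so no gap was seen in that bin, which holds 29 and 75 cells. Of all macrophages, 6.48% of control and 9.36% of UBD cells passed the limit for replication genes alone, 2.30% and 6.01% for mitosis genes alone and 1.45% and 5.58% for both. In T cells with 10 or more replication UMIs the shares with 5 or more mitosis UMIs were 69.2% and 69.7%, from 26 and 33 cells. Depth before thinning went with these bins, with medians of 17935 UMIs in control tumour cells with 0 or 1 replication UMIs and 33289 in those with 10 or more, and its part was not tested.

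**Figure D5:**
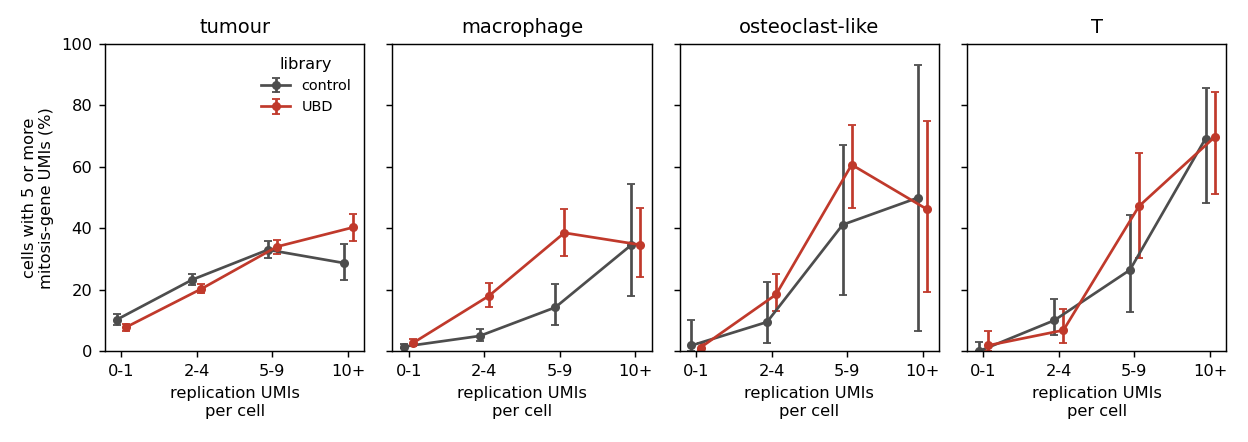
Percent of cells with 5 or more mitosis-gene UMIs (vertical axis) by replication UMIs per cell (horizontal axis), at 2000 UMIs per cell, in 4 classes and 2 libraries, with exact 95% binomial intervals for counting error. In macrophages the UBD library lies above the control with 5 to 9 replication UMIs (38.6% and 14.3%) and level with it with 10 or more (34.7% and 34.5%), and T cells with 10 or more reach 69.2% and 69.7%.

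Other replication genes, a list of 43 that holds the origin recognition complex, remaining polymerase subunits and checkpoint proteins, had medians nearer 0 than the 36 in macrophages and osteoclast-like cells. In macrophages 8 of 43 were at least 1.5-fold higher in the UBD library and 1 lower, against 10.6% and 21.0% of all genes, with a median log2 ratio of 0.22 (0.05 to 0.39). Clspn, a checkpoint mediator at the fork, was 8.72 and 20.1 CPM (2.30-fold higher, 1.79 to 2.98), Dctpp1, which degrades unwanted nucleotides, 49.98 and 89.8 CPM (1.80-fold, 1.61 to 2.01) and Asf1b, a histone chaperone, 11.7 and 20.1 CPM (1.72-fold, 1.37 to 2.17). The lower one was Dck, a salvage kinase for deoxynucleosides, at 64.7 and 27.6 CPM (ratio 0.427, 0.371 to 0.490). In tumour cells Orc1 was the one lower gene (4.52 and 2.14 CPM, ratio 0.474) and Dnmt1, the maintenance methyltransferase, the one higher (55.5 and 85.6 CPM, 1.54-fold). Osteoclast-like cells had 8 of 41 measured lower and 3 higher, against 14.5% and 10.3% of all genes, with a median of -0.23.

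Among 21 regulators of entry into S phase no common direction was seen in macrophages, with 4 higher and 2 lower, against 10.6% and 21.0% of all genes, and a median of 0.14 (-0.28 to 0.36). Cdkn1a, which encodes the cyclin-dependent kinase inhibitor p21, was 936 CPM in control and 541 CPM in UBD macrophages (ratio 0.578, 0.559 to 0.597). The cyclin gene Ccnd2 was 76.6 and 38.2 CPM (0.499, 0.441 to 0.563), while Cdk4 was 56.3 and 88.5 CPM (1.57, 1.42 to 1.75) and Ccna2, a cyclin of S phase and G2, 15.6 and 27.3 CPM (1.75, 1.44 to 2.14). Cdkn1a was also lower in UBD osteoclast-like cells, 124 and 51.0 CPM (0.411, 0.351 to 0.482), where the members were lower as well. In tumour cells 0 of 21 passed 1.5-fold, and Ccnd1 was 499 and 668 CPM (1.34, 1.33 to 1.35). T cells had Ccnd1 at 27.7 and 85.7 CPM (3.09, 2.19 to 4.44). Transcripts of other classes were also higher in the UBD T class. Its fibroblast markers summed to 93.1 and 707 CPM and Cdkn2a was 79.5 and 109 CPM, and their part in the Ccnd1 value was not tested.

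Within the tumour class the share of cells with 5 or more replication UMIs varied with a few state genes. UBD tumour cells with a UMI of H19, an imprinted noncoding RNA, had a share of 24.7% against 30.1% in those without (-5.41 points, -8.12 to -2.55), and in the control library it was 25.3% and 31.2% (-5.88, -12.3 to 1.75). Cells with the keratin gene Krt18 had 34.6% against 28.8% in the UBD library (5.78 points, 1.83 to 9.93) and 31.5% against 31.0% in the control (0.501, -8.19 to 10.7). For Serpinb2, a plasminogen activator inhibitor, control cells had 23.4% against 31.3% (-7.91 points, -13.5 to -1.30), and 28 UBD cells with a UMI were too few. Cells with a UMI of Cxcl10, an interferon-induced chemokine, had 32.4% against 28.8% in the UBD library (3.57, 0.443 to 6.82) and 31.7% against 30.1% in the control (1.57, -1.10 to 4.21). None of these splits moved the share by as much as the gap between tumour cells and macrophages. Median depth before thinning differed between cells with and without a UMI as well. For H19 it was 12151 and 20947 UMIs in the control and 15284 and 17498.5 in the UBD library. For Krt18 it was 19904 and 17040 in the UBD library. In the control it was 23955.5 and 20431 for Serpinb2 and 13735 and 28151 for Cxcl10. The part of depth in these splits was not tested.

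In macrophages the Ly6c2 split within the control library gave 5.02% with a UMI and 9.82% without (-4.80 points, -7.12 to -2.38). H2-Ab1 made no difference beyond counting error in control macrophages (-0.585 points, -3.02 to 1.94), but in UBD macrophages cells with it had 12.7% against 19.3% without (-6.66 points, -10.6 to -2.92). Median depth before thinning was 3979 UMIs with and 4903.5 without Ly6c2 in control macrophages. It was 5784 with and 6412 without H2-Ab1 in UBD macrophages, and the part of depth was not tested. In T cells the split by Cd8a, a marker of cytotoxic T cells, gave 21.9% with and 18.0% without in the control, and 21.95% with and 29.2% without in the UBD library, and both differences span 0. Between libraries, T cells with a Cd8a UMI differed by 0.0969 points (-9.09 to 9.17) and those without by 11.2 points (0.931 to 21.6). Whether these gaps differ from each other was not tested.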

How the data were processed

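The authors deposited 1 sparse matrix of UMI counts per library, made with Cell Ranger, STAR and mm10 per the submitters' processing notes, and the file headers give software version 3.1.0. The sources used here do not state the annotation or how cells were called. Gene positions come from GENCODE vM21 on GRCm38. Barcodes were kept with at least 200 genes, 500 UMIs and at most 20% mitochondrial UMIs. Scrublet in scanpy 1.11.5 (expected rate 0.1) removed 529 control (3.69%) and 562 UBD (4.13%) cells as doublets.

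Class rules were at least 3 UMIs and 500 CPM of Cdkn2a with under 2 UMIs of Cdh5 (tumour), at least 3 UMIs and 500 CPM of C1qa (macrophage), 2 UMIs each of Acp5 and Ctsk (osteoclast-like, taken before macrophage), and 1 UMI of Cd3e, Ncr1 or Flt3. Background rules were 5 UMIs of S100a9 with 1 of Csf3r, and 2 each of Ccr7 and Fscn1. Cells were thinned to 2000 UMIs without replacement (seed 0). CPM used unthinned sums per class. Shares have Clopper-Pearson intervals, their differences Newcombe-Wilson intervals, CPM exact Poisson intervals and ratios exact conditional binomial intervals. List medians have order-statistic intervals over genes, and were computed where both libraries held at least 100 cells, except the counts given for NK and dendritic cells. UMIs are not fully independent molecules, so limits (3 counts where a count is 0) and intervals other than those of list medians cover counting error only. Calculations were tested on simulated data. The members, lists and rules were chosen with earlier results of these data known. Named genes are the largest and smallest ratios per class past 1.5-fold whose interval excludes 1, the members with the most and fewest UMIs per role, and those that follow the sum most and least. Others in the text were named after their values were seen. Software was Python 3.11.15, numpy 2.4.6, scipy 1.17.1, pandas 2.3.3 and matplotlib 3.10.9. Alternatives changed the depth, the UMI limit, the draw, the filters, the class rules and the averaging over cells. Those without the shared barcodes and over all draws were chosen after seeing the data.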

Additional observations from a re-analysis of the deposited data

Results flagged for a closer look

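The share of cells with 5 or more replication UMIs differed between the libraries in opposite directions by class. It was 7.01 points higher in UBD than in control macrophages, and differed by -8.75 points in osteoclast-like and -1.75 points in tumour cells. The differences between classes were not tested, and the sign in tumour cells changed with the random draw.

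Cells that met no rule of the tumour, macrophage, osteoclast-like, T, NK or dendritic class were left out of the class comparisons above. They include the neutrophil class and those mature dendritic cells without a UMI of Flt3. Of all of them, 7.87% in the control (6.98 to 8.83) and 13.7% in the UBD library (11.98 to 15.5) had 5 or more replication UMIs. Both shares were above the 0 of 67 and 0 of 44 in mature dendritic cells. There were 3342 and 1545 cells of no class at 2000 UMIs. Between the libraries their share was 5.79 points higher in UBD cells (3.90 to 7.79). A higher share in the UBD library was thus also seen in cells that did not meet the macrophage rule.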

How the results depend on the processing

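Of 156 alternative values, 131 stayed within the interval of the main value, or within 1.5 times a main count. A further 22 moved beyond it, and 3 turned the sign of a difference whose interval excludes 0. Those 3 were all in the tumour share, 1.41 points at 1000 UMIs, 1.53 with 8 or more UMIs and 0.13 in another draw, and it was -3.71 at 4000 UMIs and -3.87 with 3 or more. The macrophage share difference stayed positive in all 12 alternatives, at 3.82 points with 1000 UMIs, 10.7 with 4000 and 9.37 with 3 or more. That of osteoclast-like cells kept its sign at -19.4 with 3 or more, but its interval spanned 0 at 1000 UMIs (-0.97), without the 3 members with most UMIs (-3.84) and with cells in every class (-5.84). At 4000 UMIs the T difference was 14.8 and the dendritic 34.1 points, and the dendritic one, whose interval spans 0, was -3.43 with cells counted in every class whose rule they met. The osteoclast-like median was -0.43 with stricter cell filters, -0.18 with cells in every class and -0.78 as a mean over thinned cells, and its count of lower members 10 and 4 under the first 2. Over thinned cells 3 tumour members were lower. In T cells the higher members were 1 with doublets kept or cells in every class and 9 over thinned cells, and the lower ones were 0 with cells in every class, 1 over thinned cells and 0 with at least 50 UMIs. The causes were not tested. Macrophage counts stayed between 17 and 21 higher and at 1 lower in 8 alternatives. No paired analysis was possible because each group has 1 library. With 20 NK and 46 dendritic cells in the UBD library, differences in those classes were not detectable unless large.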
